A study of Sus scrofa with 4 samples.

Results

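The comparison described here set the library of induced neural stem cell-like cells (iNSLCs) against the library of the fibroblasts from which they were made, that is 2 of the 4 libraries of the series, chosen by their labels. Both came from 1 animal, the pig N01F. The fibroblasts were grown from ear skin of this post-neonatal pig and were sampled at passage 1, without vectors. The iNSLCs, labelled passage 1, came from dome-shaped primary colonies that appeared when such fibroblasts had been transfected with the EP-B set of non-integrating episomal vectors (OCT4, SOX2, KLF4, L-MYC, LIN28, a dominant-negative p53, EGFP, KLF2, NANOG, KDM4D and GLIS1) and kept in NSM, an induction medium with small molecules. The other 2 libraries came from iPSC clones at passage 3. These clones were derived from such colonies in a pluripotency medium with activin A, TGF-beta1 and the WNT inhibitor IWP2. Their libraries enter the scaling of the counts and are otherwise given only as values beside the comparison. Colony cells carry or have carried vector genes and are a population, not a sorted cell type. Transfected cells were moved onto a layer of mouse embryonic feeder cells for induction, and whether the iNSLC sample still held such cells is not known here. Vectors, medium and cell state changed together, so their parts cannot be told apart.

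Each state had 1 library (n = 1). There was therefore no replicate check, and no p-value or SD was computed. The total count was 62421521 in fibroblasts and 25784594 in iNSLCs. Levels are TMM-scaled CPM, that is counts scaled for library size and composition, and comparisons between the libraries are ratios of these levels. A 95% interval on a ratio, from the exact conditional binomial distribution, covers counting error only. Reads are not independent molecules, and differences between cultures are not in it. A gene with 0 counts could have lain at up to the level of 3 counts, 0.0648 CPM in fibroblasts and 0.105 CPM in iNSLCs, and its fold is given against that floor as a lower bound. A gene is called higher or lower in a count when the libraries lay at least 4-fold apart and the higher one was at 10 CPM or more.

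Fibroblasts are mesenchymal cells that secrete collagens, proteoglycans and proteases and pull on the matrix through actin stress fibres. In reprogramming, vector-borne transcription factors first shut down this mesenchymal programme and switch on epithelial adhesion genes, and the endogenous pluripotency network follows later. Neural stem cells line the embryonic neural tube, depend on SOX2, and give rise to neurons through proneural factors such as the neurogenins. Position along the tube is set by WNT, BMP, retinoic acid, FGF and SHH signals, which act through genes of the ZIC, LMX, PAX, OTX and HOX families.

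Of 18195 genes with a count in either library, 927 (5.09%) were higher in iNSLCs and 895 (4.92%) were lower. Of 13473 genes at 1 CPM or more in either library, 6.88% were higher and 6.64% lower, and of 10079 genes at 10 CPM or more, 9.20% were higher and 8.88% lower. The median log2 ratio was -0.04 over the 13473 genes, and counts of list members below are over members in this set, which a gene can enter through the library where it is high. The higher genes included more large ratios than the lower genes. Among the higher genes 461 lay at least 16-fold and 221 at least 100-fold apart, against 141 and 20 of the lower genes. At 0 counts in fibroblasts and 10 CPM or more in iNSLCs stood 62 genes, and 3 genes, ZBED2, FAM25A and GDF15, had the reverse pattern. The lower genes held 20.9% of the fibroblast counts and 4.03% of the iNSLC counts, and the higher genes held 0.399% and 7.03%. A 60.3% share of the genes at 10 CPM or more lay within 2-fold.

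Relative to scaling by total counts, every log2 ratio decreased by 0.58 under TMM scaling. With total counts 1329 genes were higher and 508 lower, so that higher genes made up 72.3% of the called genes instead of 50.9%. Ratios below are on the TMM scale. Genes that lay between 4-fold and about 6-fold lower no longer met the 4-fold limit with total counts, and among those named below these were ALDH1A1, ATF4, CARS1, CDH13, COL12A1, COL16A1, COL5A1, COL5A2, COL6A1, ETV5, HSPA5, INSIG1, KLF4, MITF, NOTCH2, PCDH17, PDGFRA, RARG, SHMT2, SMAD7, SPRY4, TWIST1, TWIST2 and WARS1. EN1, ETV4, GDF15 and NOG fell under 10 CPM with total counts and were then not called either. CDK1 and MKI67, among others, met the 4-fold limit in the other direction.

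**Figure D1:**
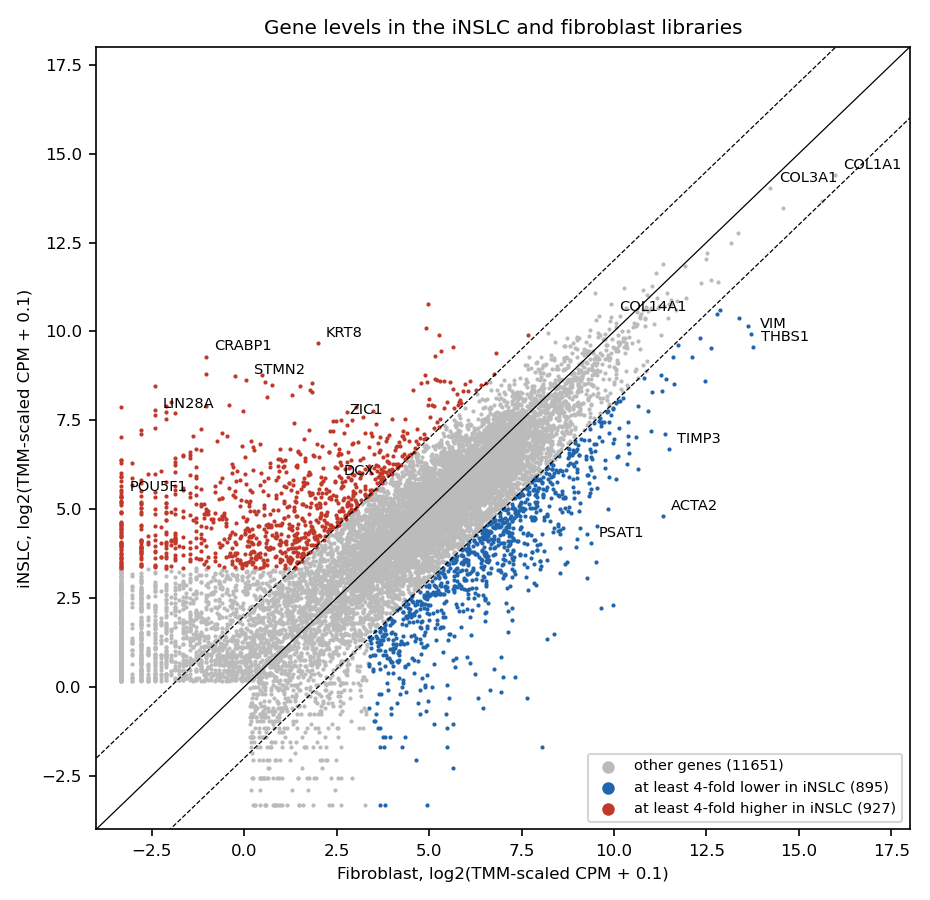
Levels of the 13473 genes at 1 CPM or more in either library, in fibroblasts (x axis) and iNSLCs (y axis), as log2(TMM-scaled CPM + 0.1); each point is a gene, the solid line marks equal levels and the dashed lines 4-fold. The 927 higher genes reach far to the left, down to the floor of the fibroblast library, whereas the 895 lower genes lie nearer to the diagonal, and the fibrillar collagens COL1A1 and COL3A1 stay at the top of both libraries.

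The 15 highest ratios among named genes at 10 CPM or more were headed by GREB1L and DPYSL5. GREB1L (ENSSSCG00000003699, chromosome 6, 106566595 to 106691127), a gene needed for kidney and inner ear development, stood at 0.0864 CPM in fibroblasts and 354 CPM in iNSLCs, 4102-fold (95% interval 1601 to 15056) higher. DPYSL5, a regulator of neurite growth, had 0 counts in fibroblasts and 234 CPM in iNSLCs, at least 3618-fold higher. LIN28A, an RNA-binding protein that blocks the maturation of let-7 microRNAs, was at 0.0864 CPM in fibroblasts and 202 CPM in iNSLCs, 2337-fold (95% interval 912 to 8579) higher. CRABP1 (ENSSSCG00000021873, chromosome 7, 47601991 to 47609624), which binds retinoic acid in the cytosol, was at 0.389 CPM in fibroblasts and 627 CPM in iNSLCs, 1612-fold (95% interval 1019.9 to 2721) higher, against 24.5 and 10.8 CPM in the iPSC clones. COL6A5, a collagen VI chain, was at 0 counts in fibroblasts and in both iPSC clones and at 131 CPM in iNSLCs. Others were PTPRD (0.0864 to 223 CPM), a receptor phosphatase of synapses, IGFBPL1 (0.0432 to 151 CPM), SALL4 (0.13 to 239.8 CPM), IGDCC3 (0.0864 to 155 CPM), LRRN1 (0.151 to 259 CPM), HEPH (0.13 to 214 CPM), the neuronal membrane glycoprotein gene GPM6A (0.13 to 187 CPM), NCAN (0 to 84.1 CPM), a proteoglycan of brain matrix, and FABP7 (0 to 83 CPM), the fatty acid-binding protein of radial glia.

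The 15 lowest ratios were headed by SAA3 and ZBED2. SAA3, an acute-phase protein with near-identical relatives whose reads may have been shared, was at 50 CPM in fibroblasts and 0.105 CPM in iNSLCs. S100A2, a calcium-binding protein, was at 200.2 CPM in fibroblasts and 0.698 CPM in iNSLCs, 287-fold (95% interval 186 to 469.9) lower. AMCF-II, a pig chemokine for neutrophils, was at 1014 CPM in fibroblasts and 4.85 CPM in iNSLCs, 209-fold (95% interval 177 to 249) lower. COL15A1, a basement membrane collagen, was at 329.5 CPM in fibroblasts and 2.72 CPM in iNSLCs, 121-fold lower. Others were ZBED2 (30.7 to 0 CPM), the ammonia transporter RHCG (45 to 0.209 CPM), the gelatinase MMP9 (24.8 to 0.14 CPM), the pericyte proteoglycan CSPG4 (88.3 to 0.558 CPM), calponin CNN1 (123 to 0.803 CPM), CXCL8 (159 to 1.12 CPM), FAM25A (13.9 to 0 CPM), ADAMTSL3 (50.2 to 0.384 CPM), C1QTNF12 (44.9 to 0.349 CPM) and the collagen cross-linking enzyme LOXL4 (294 to 2.44 CPM).

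The label of the library was set beside 9 neural genes named in the study. SOX2, MSI1 and DCX were higher and none was lower (median log2 ratio 5.06). SOX2 (ENSSSCG00000037485, chromosome 13, 119663183 to 119669539), which maintains neural and pluripotent stem cells alike, was at 0.281 CPM in fibroblasts and 134 CPM in iNSLCs, 477-fold (95% interval 279 to 897) higher. MSI1, an RNA-binding protein of neural progenitors, was at 0.345 CPM in fibroblasts and 151 CPM in iNSLCs, 438-fold higher. DCX, a microtubule protein of migrating neuroblasts, was at 5.38 CPM in fibroblasts and 54.6 CPM in iNSLCs, 10.2-fold (95% interval 8.88 to 11.7) higher, and at 1.44 and 1.68 CPM in the iPSC clones. The remaining genes were weak or did not separate the libraries. SOX1, a marker of early neuroepithelium, had 0 counts in fibroblasts and 2.16 CPM in iNSLCs. The proneural factors NEUROG1 (0 to 6.04 CPM) and NEUROG2 (0.238 to 5.72 CPM) had few or no counts in fibroblasts and stayed under 10 CPM in iNSLCs. PAX6, a patterning factor of the neural tube, was at 21.5 CPM in fibroblasts and 14.6 CPM in iNSLCs, and ZNF521, a factor that drives early neural fate, at 41.6 CPM in fibroblasts and 60.3 CPM in iNSLCs, both within 2-fold. Against fibroblasts only SOX2, MSI1 and DCX of these genes were thus higher, but SOX2 (211 and 254 CPM) and MSI1 (85.2 and 97.1 CPM) were abundant in the iPSC clones as well. SOX2 was also a vector gene, and the part of vector reads in its count was not tested. Levels of the proneural genes were low, and PAX6 was no higher than in fibroblasts.

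In the list of neural stem and radial glia genes, 9 of 27 were higher and 2 lower (median log2 ratio 2.49). FABP7 was at 83 CPM in iNSLCs, at least 1281-fold higher. NES, the intermediate filament of neural progenitors, was at 30.6 CPM in fibroblasts and 384 CPM in iNSLCs, 12.6-fold (95% interval 11.9 to 13.3) higher. SOX3 (0.0432 to 15.6 CPM), the phosphatase PTPRZ1 (0.173 to 17.4 CPM), PROM1 (1.1 to 31 CPM), MSI2 (14.4 to 81.2 CPM) and N-cadherin, CDH2 (27.5 to 373 CPM), were the other higher members with SOX2 and MSI1. VIM and TNC, which radial glia share with fibroblasts, were lower, VIM at 13441 CPM in fibroblasts and 969 CPM in iNSLCs (13.9-fold) and TNC at 2644 CPM in fibroblasts and 139 CPM in iNSLCs (19-fold). Several members that mark radial glia lay below 4-fold or under the level limit. HES5, a Notch effector, had 0 counts in fibroblasts and 9.04 CPM in iNSLCs. The glial factor SOX9 was at 33.4 CPM in fibroblasts and 10.4 CPM in iNSLCs, the glutamate transporter SLC1A3 at 35.3 CPM in fibroblasts and 18.9 CPM in iNSLCs, and the transcription factor gene LHX2 at 2.55 CPM in fibroblasts and 0.768 CPM in iNSLCs.

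Genes of differentiating neurons were present in the same library. Of 29 proneural and differentiation factors, 10 were higher and 0 lower (median log2 ratio 5.06), and of 33 neuronal genes, 18 and 0 (median 4.47). NEUROD4, a proneural factor, had 0 counts in fibroblasts and in both iPSC clones and was at 13.3 CPM in iNSLCs, at least 205-fold higher. POU4F1, a factor of sensory neurons, was at 0.0864 CPM in fibroblasts and 32 CPM in iNSLCs, 371-fold (95% interval 144 to 1364) higher. The neuronal RNA-binding proteins ELAVL3 (0.0432 to 35.2 CPM), ELAVL2 (0.13 to 41.5 CPM) and ELAVL4 (0.345 to 14 CPM) were likewise higher, as were ONECUT1 (0.0648 to 16 CPM), INSM1 (0 to 10.6 CPM), SOX11 (2.38 to 50.9 CPM) and HES6 (4.25 to 54.8 CPM). STMN2 (ENSSSCG00000006160, chromosome 4, 56952709 to 57006661), a microtubule regulator of growth cones, was at 0.928 CPM in fibroblasts and 395 CPM in iNSLCs, 426-fold (95% interval 316 to 589) higher. MAP2, the microtubule protein of dendrites, was at 3.45 CPM in fibroblasts and 314 CPM in iNSLCs, 91-fold higher. TUBB3, the neuronal beta-tubulin, was at 5.14 CPM in fibroblasts and 147 CPM in iNSLCs, 28.5-fold higher. Neurofilament and synaptic genes stood in the same direction, among them NEFL (0.302 to 48.9 CPM), NEFM (2.59 to 72.8 CPM), INA (0.0432 to 29.9 CPM), SYT1 (0.0432 to 22.8 CPM) and SNAP25 (0.0864 to 14.2 CPM). The iPSC clones held much of this expression too, with a summed level of 1959 and 2142 CPM over the neuronal list, against 2985 CPM in iNSLCs and 1337 CPM in fibroblasts, and DPYSL5 at 169 and 215 CPM. STMN2, MAP2 and NEFL were several-fold below the iNSLC level in the iPSC clones, at 99.9 and 107 CPM, 56.9 and 50.5 CPM and 7.05 and 7.39 CPM. Some genes of mature neurons were at low levels. The vesicular transporter genes SLC17A6 and SLC32A1 had 0 counts in fibroblasts and 1.95 and 1.29 CPM in iNSLCs, and NEFH, the heavy neurofilament, was at 1.71 CPM in fibroblasts and 0.419 CPM in iNSLCs. DPYSL3 (926 to 519 CPM) and UCHL1 (292 to 167 CPM) were already abundant in fibroblasts.

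Regional factors mark positions along the neural tube. Of 35 factors, 18 were higher and 2 lower (median log2 ratio 4.48). Genes of the dorsal midline and roof plate were among the higher ones. ZIC1 (ENSSSCG00000011692, chromosome 13, 87745751 to 87752919), a dorsal neural factor, was at 6.07 CPM in fibroblasts and 182 CPM in iNSLCs, 29.9-fold (95% interval 26.5 to 33.9) higher, and at 2.83 and 2.08 CPM in the iPSC clones. ZIC4, its neighbour on the chromosome, was at 0.302 CPM in fibroblasts and 60.9 CPM in iNSLCs, 202-fold higher. LMX1B was at 0.259 CPM in fibroblasts and 62.2 CPM in iNSLCs, 239.9-fold (95% interval 137 to 465) higher, and LMX1A, with LMX1B a roof plate and midbrain factor, at 0.302 CPM in fibroblasts and 18 CPM in iNSLCs. MSX1 (10.8 to 134 CPM), PAX3 (0.972 to 21.6 CPM), PAX7 (0.13 to 12.1 CPM) and OLIG3 (0 to 15.9 CPM), which mark dorsal progenitors, were higher as well. The roof plate signals WNT3A and WNT1 had 0 counts in fibroblasts and 6.14 and 2.76 CPM in iNSLCs. Ventral genes went both ways. NKX6-1, a factor of ventral progenitors, was at 0.561 CPM in fibroblasts and 27.7 CPM in iNSLCs, SHH at 0 CPM in fibroblasts and 3 CPM in iNSLCs, and NKX2-2 at 6.05 CPM in fibroblasts and 0.803 CPM in iNSLCs. Of the forebrain factors, OTX2 had 0 counts in fibroblasts and 21.2 CPM in iNSLCs, whereas SIX3 was at 17.4 CPM in fibroblasts and 0.628 CPM in iNSLCs. EN1, a midbrain and hindbrain factor that also marks a lineage of skin fibroblasts, was at 11.1 CPM in fibroblasts and 1.33 CPM in iNSLCs, and GBX2, which is expressed behind that border, at 0.0432 CPM in fibroblasts and 10.9 CPM in iNSLCs.

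Among 25 HOX genes, 2 were higher and 0 lower (median log2 ratio 1.32). HOXA3, an anterior gene of the hindbrain, met the limits at 1.4 CPM in fibroblasts and 15.2 CPM in iNSLCs, 10.8-fold (95% interval 8.32 to 14.3) higher. HOXB1, also a hindbrain gene, was at 0 counts in fibroblasts and in both iPSC clones and at 8.65 CPM in iNSLCs. The other gene that met the limits is not named here. The remaining HOX genes named here went both ways without meeting the limits. HOXB8 (1.1 to 9.81 CPM) and HOXB5 (0.367 to 3.45 CPM) lay higher in iNSLCs, and the posterior genes HOXD9 (4.3 to 0.628 CPM), HOXC9 (1.62 to 0.558 CPM), HOXD13 (1.12 to 0.593 CPM) and HOXA11 (1.36 to 0.0698 CPM) lay lower. CDX2, a caudal factor that is also a trophoblast marker, had 0 counts in fibroblasts and 23.6 CPM in iNSLCs, at least 364-fold higher, and CDX1 was at 0.0216 CPM in fibroblasts and 8.62 CPM in iNSLCs. Retinoid genes, a group added after their values were seen, did not share a direction. The binding protein CRABP1, the esterifying enzyme LRAT (0 to 19.3 CPM) and the degrading enzyme CYP26A1 (0.0864 to 15.5 CPM) were higher. The synthesising enzymes went both ways, since ALDH1A2 had 0 counts in fibroblasts and 4.33 CPM in iNSLCs, under the level limit, and ALDH1A3 (144 to 11.4 CPM) and ALDH1A1 (207 to 49.3 CPM) were lower. The carrier RBP4 (15.2 to 0.279 CPM) and the receptor RARG (142 to 24 CPM) were lower too, so that 4 of 20 were higher and 4 lower (median log2 ratio 0.37, but -1.69 over members at 20 CPM or more and -0.42 with overlapping genes left out).

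**Figure D2:**
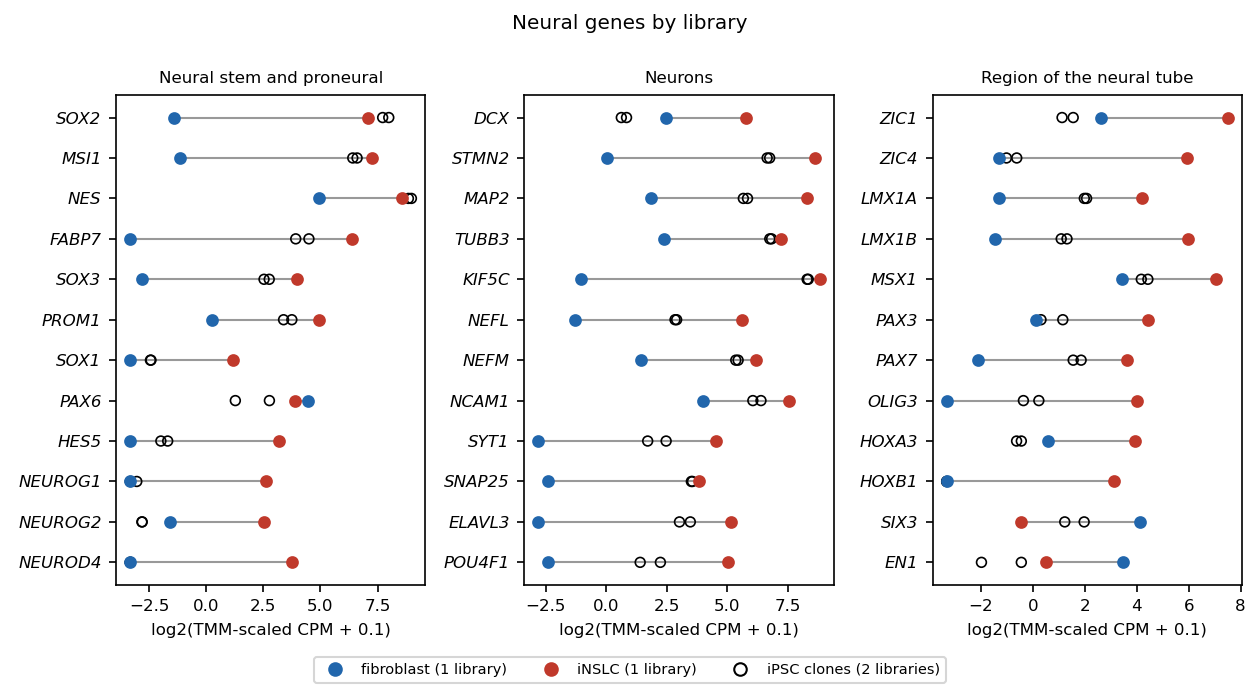
Levels of 36 neural genes, as log2(TMM-scaled CPM + 0.1), in the fibroblast library (blue), the iNSLC library (red) and the 2 iPSC clones (open circles); grey lines join fibroblast and iNSLC. The iNSLC points lie to the right for most genes, with PAX6, SIX3 and EN1 as exceptions, and for ZIC1, ZIC4, LMX1B, DCX and NEUROD4 the iPSC clones lie far from the iNSLC point.

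Counts at pluripotency genes were partly higher. Of the 11 measured pluripotency genes that the study names, 5 were higher and 1 was lower (median log2 ratio 5.68). The vectors carried OCT4, SOX2, KLF4 and LIN28, and vector reads may have been counted at the pig genes or lost. The part of such reads was not tested. POU5F1, which encodes OCT4, had 0 counts in fibroblasts and 40.5 CPM in iNSLCs, at least 625-fold higher, with 295 and 275 CPM in the iPSC clones. EPCAM, an epithelial adhesion molecule of stem cells, was at 0.561 CPM in fibroblasts and 58.1 CPM in iNSLCs, 104-fold (95% interval 70.4 to 159) higher. ZFP42, a zinc finger gene of early embryos, was at 0.259 CPM in fibroblasts and 11.9 CPM in iNSLCs. NANOG, which the vectors also carried, had 0 counts in fibroblasts and 0.209 CPM in iNSLCs, below the limits of this comparison, and 52.4 and 40.9 CPM in the clones. DPPA5 (0 to 3.35 CPM), UTF1 (0.0216 to 3.32 CPM), TERT (0.626 to 3.11 CPM), DPPA2 (0.345 to 2.72 CPM) and TDGF1 (0.0216 to 1.12 CPM) remained under 10 CPM. KLF4, a factor that skin cells express on their own, was at 310.3 CPM in fibroblasts and 54.4 CPM in iNSLCs, 5.7-fold (95% interval 5.41 to 6.01) lower.

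Of the core and primed pluripotency genes, 15 of 22 were higher and 2 lower (median log2 ratio 8.04). MYCN, a MYC gene of embryonic and neural progenitors, was at 0.0432 CPM in fibroblasts and 53.6 CPM in iNSLCs. MYC, which is not on this list, was at 90.1 CPM in fibroblasts and 8.48 CPM in iNSLCs, 10.6-fold (95% interval 9.34 to 12.1) lower. PODXL (0.734 to 433 CPM), SALL4 and ZIC2 (0.259 to 96.9 CPM) were among the higher ones. VRTN (0 to 4.05 CPM) and SHISA2 (0.0432 to 2.37 CPM), at 134 and 154 CPM and 60.3 and 62.1 CPM in the iPSC clones, did not reach 10 CPM. The lower members were ETV5 and the WNT antagonist SFRP2. SFRP2 was at 1068 CPM in fibroblasts and 57.8 CPM in iNSLCs, 18.5-fold lower. Of the naive pluripotency genes, 3 of 12 were higher and 1 lower (median log2 ratio 4.17). The orphan receptor ESRRB had 0 counts in fibroblasts and 30 CPM in iNSLCs, above its 9.75 and 4.06 CPM in the clones, and TFAP2C was at 1.77 CPM in fibroblasts and 74.6 CPM in iNSLCs. TFCP2L1 (2.14 to 0.349 CPM) and TBX3 (49.6 to 19.9 CPM) were not higher. Among pig counterparts of the vector genes, 3 of 7 were higher and 1 lower (median log2 ratio 1.25). MYCL was at 9.93 CPM in fibroblasts and 23.6 CPM in iNSLCs, KLF2 at 3.61 CPM in fibroblasts and 8.34 CPM in iNSLCs and GLIS1 at 41.8 CPM in fibroblasts and 21.9 CPM in iNSLCs, all within 3-fold. Reads from the human or mouse sequence on the vectors may have been counted at these genes or lost. Their part was not tested.

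RNA-binding and HMGA genes of the LIN28 and let-7 axis, which are on in embryonic tissue and off in most adult cells, were higher in 7 of 8 cases (median log2 ratio 7.78). This group was added after its values were seen. LIN28B was at 0.626 CPM in fibroblasts and 133 CPM in iNSLCs, 213-fold (95% interval 148 to 318) higher. HMGA2, an architectural chromatin protein and let-7 target, was at 1.58 CPM in fibroblasts and 357 CPM in iNSLCs, 227-fold (95% interval 180.1 to 289) higher. IGF2BP1 (0.561 to 142 CPM), IGF2BP3 (28.8 to 139 CPM), TRIM71 (0 to 46.5 CPM) and HMGA1 (35.3 to 629 CPM) followed, and IGF2BP2 was at 83.9 CPM in fibroblasts and 161 CPM in iNSLCs, 1.92-fold apart. In the iPSC clones LIN28B was at 138 and 192 CPM and HMGA2 at 309.7 and 248 CPM, and LIN28A (285 and 349 CPM), TRIM71 (72.2 and 93.8 CPM) and HMGA1 (1147 and 1251 CPM) lay above their iNSLC levels in both.

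Many fibroblast and matrix genes lay lower, but unevenly. Of 37 genes, 17 were lower and 2 higher (median log2 ratio -1.82), and their summed level was 216730.0 CPM in fibroblasts and 69406 CPM in iNSLCs. A set of stromal genes stayed within 2-fold. Reads from mouse feeder fibroblasts, had any been sampled, may have been counted at the same genes and cannot be told apart in these counts. COL3A1, a fibrillar collagen, was at 19211 CPM in fibroblasts and 16657 CPM in iNSLCs, against 131 and 159 CPM in the iPSC clones. COL14A1, a fibril-associated collagen, was at 964 CPM in fibroblasts and 1356 CPM in iNSLCs, against 25.8 and 26.6 CPM. The gelatinase MMP2 (1953 to 1510.5 CPM), the proteoglycans LUM (615 to 466 CPM) and DCN (1261 to 673 CPM) and the fibroblast activation protein FAP (49.8 to 43.6 CPM) behaved alike, with FAP at 0.296 and 0.0437 CPM in the clones. COL1A1 and COL1A2, the chains of type I collagen, were 2.99-fold and 3.89-fold lower, at 64539 CPM in fibroblasts and 21575 CPM in iNSLCs for COL1A1. They were among the 5 genes with most counts in both libraries, together with COL3A1 and the mitochondrial COX1. POSTN, a matrix protein of developing and healing tissue, went the other way with 39.5 CPM in fibroblasts and 702 CPM in iNSLCs, 17.8-fold (95% interval 16.9 to 18.6) higher, as did FBLN1 (7.99 to 233 CPM, 29.2-fold).

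The lower genes on the same list spanned adhesive glycoproteins, proteoglycans and growth factor receptors. THBS1, which activates latent TGF-beta, was at 13847 CPM in fibroblasts and 756 CPM in iNSLCs, 18.3-fold (95% interval 18.1 to 18.6) lower. FN1, fibronectin, was at 12754 CPM in fibroblasts and 1126 CPM in iNSLCs, 11.3-fold lower. TIMP3, a metalloproteinase inhibitor, was at 2848 CPM in fibroblasts and 104 CPM in iNSLCs, 27.5-fold lower. S100A4, long used as a fibroblast marker, was at 726 CPM in fibroblasts and 11.2 CPM in iNSLCs, 64.6-fold lower. BGN (1609.8 to 70.3 CPM), DPT (188 to 10.9 CPM), CCN2 (536 to 36 CPM), FBN1 (6316 to 744 CPM) and the receptors PDGFRB (680.2 to 85.6 CPM) and PDGFRA (384 to 67.6 CPM) were lower too. Over 37 measured collagen chains, a family added after its values were seen, 8 were higher and 7 lower (median log2 ratio -0.52, but 0.07 with total counts and 1.58 with overlapping genes left out). The higher ones were COL6A5, the cartilage chains COL2A1 (0.389 to 239 CPM), COL9A1 (0 to 14.2 CPM) and COL9A2 (3.91 to 43.3 CPM), the basement membrane chains COL4A5 (5.79 to 94.8 CPM) and COL4A6 (0.13 to 13.5 CPM), COL21A1 (0.173 to 16.8 CPM) and COL23A1 (0.345 to 11.9 CPM). COL5A1 (5182 to 908 CPM), COL5A2 (7487 to 1543 CPM), COL6A1 (7116 to 1426 CPM), COL12A1 (2458 to 438 CPM), COL8A1 (134 to 11.8 CPM), COL16A1 (508 to 104 CPM) and COL15A1 were the lower ones.

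No contractile or focal adhesion gene was higher and 18 of 25 were lower, with a median log2 ratio of -3.11. ACTA2 (ENSSSCG00000010447, chromosome 14, 100865313 to 100886984), the smooth muscle actin of myofibroblasts, was at 2561 CPM in fibroblasts and 27.8 CPM in iNSLCs, 92.1-fold (95% interval 85.9 to 98.9) lower, and at 97.1 and 122 CPM in the iPSC clones. CNN1, calponin, was at 123 CPM in fibroblasts and 0.803 CPM in iNSLCs, 153-fold lower. TPM2, a tropomyosin, was at 745 CPM in fibroblasts and 22.8 CPM in iNSLCs, 32.7-fold lower. CALD1 (5648 to 389.8 CPM), FLNA (10716 to 1330.1 CPM), MYH9 (3180.5 to 365 CPM), CAV1 (1368 to 96 CPM) and the fibronectin receptor chain ITGA5 (667 to 47.5 CPM) were lower as well. For ACTA2, CNN1, TPM2, MYL9 (487 to 39.3 CPM) and CAV1 the iNSLC level lay below both iPSC clones. Fibroblast transcription factors followed, in that 13 of 35 were lower and 4 higher (median log2 ratio -1.96). PRRX1, a limb and skin mesenchyme factor, was at 1120.1 CPM in fibroblasts and 155 CPM in iNSLCs, 7.22-fold lower. PRRX2 (202 to 6.53 CPM), RUNX1 (174 to 13.3 CPM), FOXF1 (41.3 to 4.15 CPM) and MKX (15.7 to 0.489 CPM) were lower, and the higher ones included NR2F1 (8.98 to 64.5 CPM), NR2F2 (22.5 to 94.3 CPM) and EBF2 (4.45 to 22.5 CPM), of which NR2F1 and EBF2 also act in neurons. EBF1 (40.1 to 30.7 CPM) and FOXC1 (6.63 to 5.37 CPM) were within 2-fold.

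Epithelial genes lay higher and most mesenchymal genes lower, with exceptions among the regulators. Of 25 epithelial genes, 18 were higher and 0 lower (median log2 ratio 5.34), and of 13 mesenchymal genes and regulators, 8 were lower and 1 higher (median -2.22). KRT8, a keratin of simple epithelia, was at 3.86 CPM in fibroblasts and 814 CPM in iNSLCs, 211-fold (95% interval 182 to 245) higher, and KRT18, its partner, at 1.43 CPM in fibroblasts and 283 CPM in iNSLCs. CDH1, E-cadherin, was at 3.48 CPM in fibroblasts and 378 CPM in iNSLCs, 109-fold (95% interval 93 to 128) higher. CDH2, N-cadherin, was higher in the same library, at 27.5 CPM in fibroblasts and 373 CPM in iNSLCs, 13.5-fold (95% interval 12.8 to 14.4). ESRP1 (1.81 to 66.8 CPM), an epithelial splicing factor, and GRHL2 (0.173 to 16.4 CPM) and GRHL3 (0.13 to 15.7 CPM), which keep epithelia closed, were among the other higher genes. SNAI2 (129 to 12.9 CPM), SNAI1 (59.2 to 4.92 CPM), TWIST1 (51.6 to 11.2 CPM) and TWIST2 (61.6 to 11.3 CPM), which repress E-cadherin, were lower. ZEB1, another such repressor, was at 98.1 CPM in fibroblasts and 54.5 CPM in iNSLCs, within 2-fold, and at 7.09 and 6.95 CPM in the iPSC clones. Further cadherins of neural tissue were higher, such as CDH10 (0 to 59.4 CPM), PCDH8 (0.0432 to 13.3 CPM) and CDH6 (0.561 to 39.8 CPM). On the cadherin list 11 of 25 were higher and 3 lower (median log2 ratio 3.32), the lower ones being PCDH9 (26.9 to 3.14 CPM), CDH13 (138 to 25.6 CPM) and PCDH17 (152 to 35.6 CPM).

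**Figure D3:**
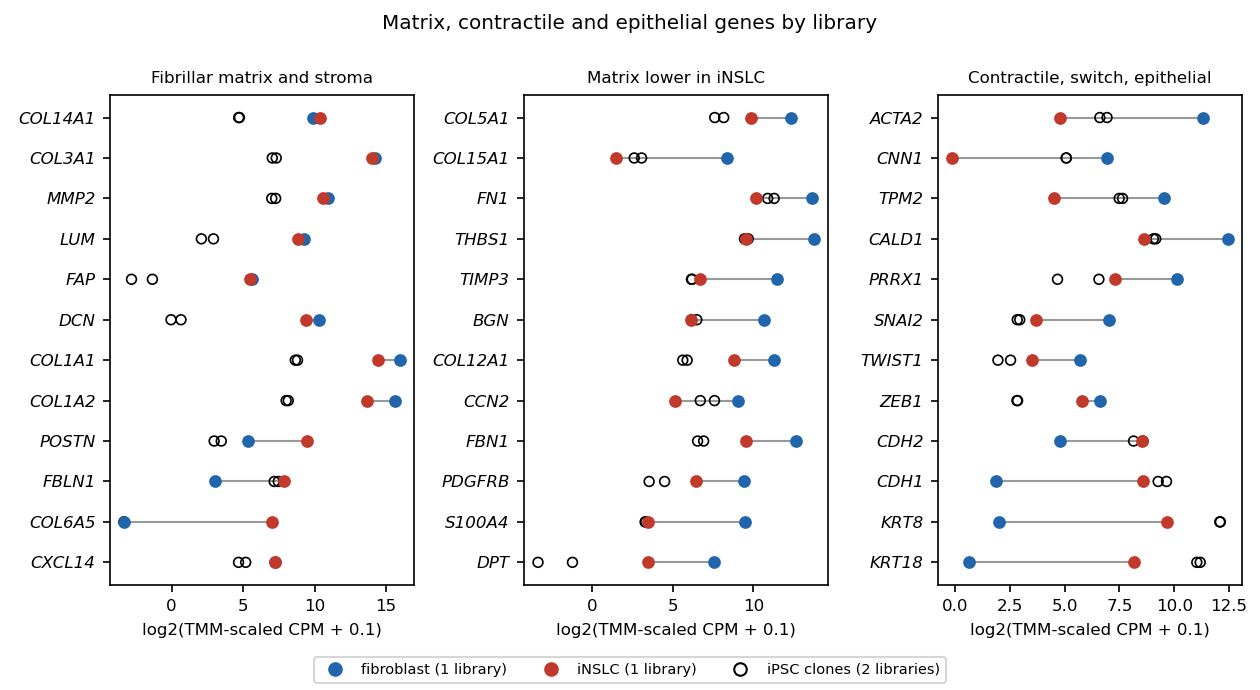
Levels of 36 stromal, matrix, contractile and epithelial genes, as log2(TMM-scaled CPM + 0.1), in the fibroblast library (blue), the iNSLC library (red) and the 2 iPSC clones (open circles). In the left panel the iNSLC and fibroblast points of COL14A1, COL3A1, MMP2, LUM and FAP lie side by side and far above the clones, in the middle panel the iNSLC points lie to the left, and in the right panel CDH1 and CDH2 both lie to the right.

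Target genes of signalling pathways went in opposite directions. Of 23 WNT targets, 12 were higher and 1 was lower (median log2 ratio 3.89). AXIN2 (ENSSSCG00000017265, chromosome 12, 12311298 to 12343200), the feedback inhibitor most used as a reporter of the pathway, was at 6.82 CPM in fibroblasts and 214 CPM in iNSLCs, 31.4-fold (95% interval 28 to 35.2) higher, and at 35.1 and 26.2 CPM in the iPSC clones. SP5, a direct target, was at 1.47 CPM in fibroblasts and 58.8 CPM in iNSLCs, 40-fold higher. LEF1 (4.12 to 59.9 CPM), NKD1 (2.91 to 49.8 CPM), RNF43 (0.907 to 21.1 CPM), ZNRF3 (6.46 to 69.7 CPM) and TNFRSF19 (3.17 to 62.7 CPM) were also higher and lay above both clones. The clones were derived in medium with the WNT inhibitor IWP2, and its part in their levels was not tested. WIF1, a secreted inhibitor, was at 26.7 CPM in fibroblasts and 0.838 CPM in iNSLCs, 31.9-fold lower, and TCF7 (77.8 to 73.1 CPM) and FZD7 (256 to 298 CPM) were within 2-fold. On the Notch list 5 of 23 were higher and 2 lower (median log2 ratio 1.97). The ligand DLL1 (6.84 to 36.8 CPM), the imprinted ligand-like DLK1 (0 to 30.3 CPM), DTX4 (2.94 to 126 CPM) and DNER (13.3 to 59.8 CPM) were higher, the receptor NOTCH2 (905 to 213 CPM) and the effector HEY2 (76.5 to 6.77 CPM) lower, and RBPJ, the pathway's DNA-binding factor, was at 109.8 CPM in fibroblasts and 101 CPM in iNSLCs.

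FGF and ERK targets lay lower. Of 18, 9 were lower and 1 was higher (median log2 ratio -1.91). ETV4, an ETS factor induced by FGF, was at 11.7 CPM in fibroblasts and 0.489 CPM in iNSLCs, 23.9-fold lower, against 68.7 and 52.5 CPM in the iPSC clones. ETV1 (155 to 10.8 CPM), ETV5 (12.6 to 2.9 CPM), FOSL1 (41.4 to 1.88 CPM), PHLDA1 (93.1 to 11.5 CPM) and the feedback inhibitor SPRY4 (15.4 to 3.21 CPM) were lower too. DUSP4, a MAP kinase phosphatase, was the exception at 21.7 CPM in fibroblasts and 121 CPM in iNSLCs, and DUSP6 was at 8.4 CPM in fibroblasts and 3.35 CPM in iNSLCs. Activin and TGF-beta targets were lower in 9 of 15 cases and higher in 0 (median log2 ratio -2.22), among them LTBP2 (621 to 8.31 CPM), BHLHE40 (278 to 14.1 CPM) and SMAD7 (42 to 8.62 CPM) besides CCN2. BMP targets split, with 2 of 12 higher and 3 lower (median -0.60). MSX1 and BAMBI (5.55 to 22.8 CPM) were higher, NOG (12.5 to 1.5 CPM), SMAD9 (129 to 16.3 CPM) and SMAD6 (41.3 to 6 CPM) lower, and ID4 was at 34 CPM in fibroblasts and 79.2 CPM in iNSLCs. YAP and TEAD targets were lower in 7 of 16 cases and higher in 0 (median -1.62). The lower ones included AXL (442 to 33.6 CPM), CRIM1 (360.2 to 23.7 CPM) and ANKRD1 (41.7 to 3.14 CPM), while YAP1 itself was at 282 CPM in fibroblasts and 183 CPM in iNSLCs. STAT3 and LIF targets were lower in 5 of 13 and higher in 0 (median -1.68), led by CEBPB (243 to 14.4 CPM) and CEBPD (371 to 21.4 CPM), with SOCS3 at 57.3 CPM in fibroblasts and 17.9 CPM in iNSLCs. AP-1 and immediate early factors were lower in 4 of 13 and higher in 0 (median -1.49). FOSL2 was at 661 CPM in fibroblasts and 96.5 CPM in iNSLCs, whereas FOS was at 10.8 CPM in fibroblasts and 23.2 CPM in iNSLCs and JUN at 45.7 CPM in fibroblasts and 31.2 CPM in iNSLCs. Of the cyclic AMP targets, 0 of 15 were higher and 3 lower (median log2 ratio -0.05), the sign of the median being positive with total counts (0.54). VGF, a neuropeptide precursor, was at 44.4 CPM in fibroblasts and 0.942 CPM in iNSLCs.

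Cells switch on the ATF4 programme when amino acids are short or the endoplasmic reticulum is stressed. On a mixed list of ATF4 and stress response genes, 17 of 23 were lower and 0 higher (median log2 ratio -2.96). ATF4 itself was at 777 CPM in fibroblasts and 177 CPM in iNSLCs, 4.4-fold (95% interval 4.27 to 4.53) lower. PSAT1 (ENSSSCG00000005287, chromosome 1, 231146345 to 231171361), an enzyme of serine synthesis, was at 663 CPM in fibroblasts and 16.5 CPM in iNSLCs, 40.2-fold (95% interval 36.7 to 44.1) lower, with 128 and 132 CPM in the iPSC clones. CHAC1, which degrades glutathione, was at 127 CPM in fibroblasts and 1.12 CPM in iNSLCs, 114-fold lower. ASNS, asparagine synthetase, was at 745 CPM in fibroblasts and 47.9 CPM in iNSLCs, 15.6-fold lower, and at 603 and 619 CPM in the clones. PHGDH (275 to 27.4 CPM), SHMT2 (239 to 43.1 CPM), MTHFD2 (147 to 19 CPM), TRIB3 (141 to 4.33 CPM), DDIT3 (27.3 to 2.27 CPM) and HSPA5 (1791 to 416 CPM), the last a chaperone of the endoplasmic reticulum, were lower as well. The heat shock genes HSPH1 (82.2 to 85.9 CPM) and DNAJB1 (60 to 60.5 CPM) did not differ by 2-fold. All 20 cytosolic aminoacyl-tRNA synthetase genes, which load amino acids onto tRNAs and were added after their values were seen, had log2 ratios from -2.92 to -0.12 (median -1.29), and 5 were at least 4-fold lower. These were GARS1 (1340.5 to 177 CPM), SARS1 (604 to 85.3 CPM), AARS1 (936 to 140.5 CPM), WARS1 (975 to 202 CPM) and CARS1 (155 to 32.7 CPM), whereas KARS1 was at 653 CPM in fibroblasts and 601 CPM in iNSLCs. With total counts the synthetases nearest to 0 lie above it. Of the amino acid transporters, likewise added, 2 of 16 were higher and 6 lower (median log2 ratio -1.27). SLC6A9 (152 to 4.57 CPM), SLC7A11 (291 to 11.8 CPM) and SLC7A5 (539.6 to 22.1 CPM) were lower and SLC7A3 (0.216 to 46.2 CPM) and SLC7A8 (38.7 to 946 CPM) higher.

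**Figure D4:**
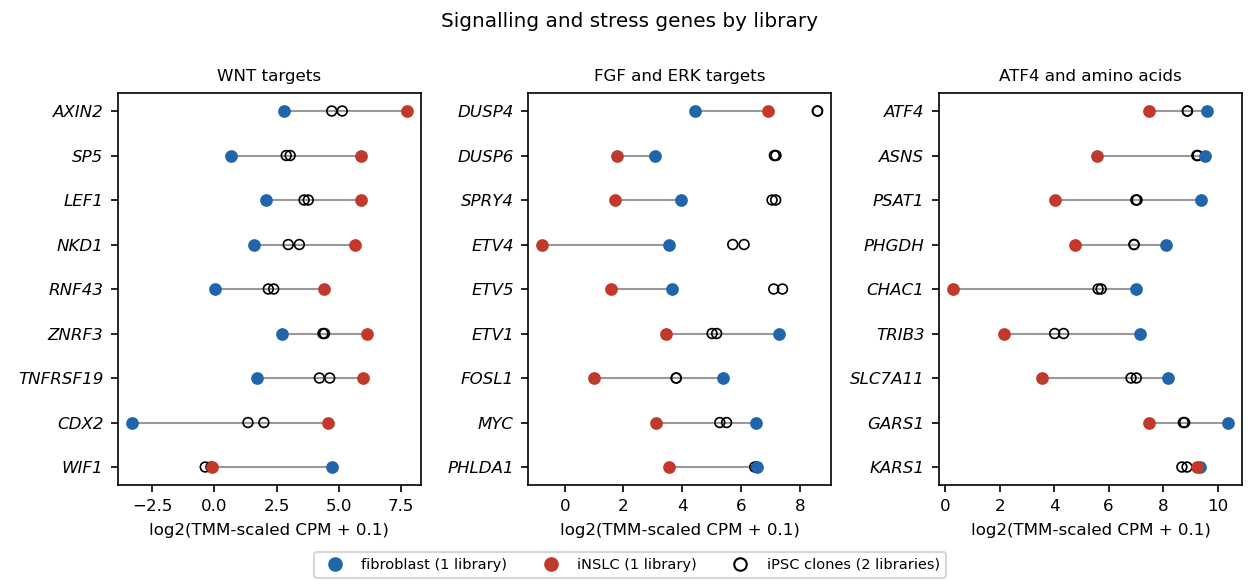
Levels of 27 genes of WNT, FGF and ERK, and ATF4 lists, as log2(TMM-scaled CPM + 0.1), in the fibroblast library (blue), the iNSLC library (red) and the 2 iPSC clones (open circles). Except for WIF1, iNSLCs lie highest in the left panel, and in the middle and right panels they lie lowest for 8 of 9 genes each, DUSP4 and KARS1 being the exceptions.

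Inflammatory cytokines and chemokines were lower in 16 of 24 cases and higher in 2 (median log2 ratio -3.09). CXCL8, a chemokine for neutrophils, was at 159 CPM in fibroblasts and 1.12 CPM in iNSLCs, 142-fold (95% interval 100.5 to 208) lower. IL1A (19.3 to 0.209 CPM), CXCL2 (122 to 1.68 CPM), CCL2 (330.1 to 22.2 CPM), IL6 (24.6 to 2.34 CPM) and IL33 (291 to 29.1 CPM) were lower as well. CXCL14, a chemokine of skin, was at 149 CPM in fibroblasts and 151 CPM in iNSLCs, and CXCL10 (0.324 to 12 CPM) and CXCL12 (2.98 to 13.1 CPM) were higher. Complement genes did not follow the cytokines. On that list 5 of 16 were higher and 2 lower (median log2 ratio 1.16). C4A, an early component of the cascade, was at 1.3 CPM in fibroblasts and 439 CPM in iNSLCs, 339-fold (95% interval 263 to 444) higher, and at 0.844 and 0.35 CPM in the iPSC clones. C7, of the terminal complex, was at 0.173 CPM in fibroblasts and 86.3 CPM in iNSLCs, 499.6-fold higher, and at 0 and 0.0437 CPM in the clones. SERPING1, the inhibitor of the first component, was at 68.7 CPM in fibroblasts and 390.3 CPM in iNSLCs, 5.68-fold higher. Interferon genes lay around 0, with 1 of 27 higher and 0 lower (median log2 ratio -0.04, but 0.54 with total counts). OAS2, an antiviral enzyme, was at 57.2 CPM in fibroblasts and 56 CPM in iNSLCs, against 9.16 and 10.4 CPM in the clones. The higher one was PARP14 (6.05 to 26.3 CPM). Antigen presentation genes were similar, with 1 of 16 higher, NLRC5 (1.08 to 11.2 CPM), and 0 lower (median 0.04, but -0.36 with overlapping genes left out). B2M, the light chain of class I molecules, was at 137 CPM in fibroblasts and 109 CPM in iNSLCs and at 12.1 and 10.6 CPM in the clones.

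Cell cycle genes had a median above 0. Of 23, 3 were higher and 0 lower (median log2 ratio 1.40). MCM2, a subunit of the replicative helicase, was at 35 CPM in fibroblasts and 239.6 CPM in iNSLCs, 6.85-fold (95% interval 6.49 to 7.23) higher. TOP2A (112 to 674 CPM) and MCM3 (34.7 to 154 CPM) were the others, with MKI67 at 78.1 CPM in fibroblasts and 304 CPM in iNSLCs and CDK1 at 17.9 CPM in fibroblasts and 62.5 CPM in iNSLCs below 4-fold. Among inhibitors and p53 targets 5 of 23 were lower and 1 was higher (median -0.74). CDKN1A, which encodes p21, was at 110.2 CPM in fibroblasts and 15.2 CPM in iNSLCs, 7.23-fold lower, MDM2 was at 165 CPM in fibroblasts and 66.5 CPM in iNSLCs, and CDKN1C, an imprinted inhibitor, was at 8.87 CPM in fibroblasts and 37.8 CPM in iNSLCs. Of DNA methylation and chromatin genes, 11 of 33 were higher and 0 lower (median log2 ratio 1.27). DNMT3B, the de novo methyltransferase of early embryos, was at 3.33 CPM in fibroblasts and 328 CPM in iNSLCs, 98.6-fold higher. UHRF1 (31.4 to 242 CPM), EZH2 (19.4 to 132 CPM), CHD7 (23.6 to 325 CPM), CBX2 (4.84 to 98.1 CPM) and TET1 (17 to 77.6 CPM) were higher, whereas SUZ12 (76.9 to 79.1 CPM), TET2 (42.3 to 47 CPM) and RING1 (72.8 to 69 CPM) were within 2-fold. The nuclear lamina genes, added after their values were seen, were split. LMNA, the lamin of differentiated cells, was at 2038 CPM in fibroblasts and 148 CPM in iNSLCs, 13.8-fold (95% interval 13.4 to 14.2) lower, and LMNB1, a B-type lamin, was at 53.7 CPM in fibroblasts and 299.8 CPM in iNSLCs, 5.59-fold (95% interval 5.34 to 5.84) higher. On that list 2 of 11 were higher and 1 was lower (median log2 ratio -0.14). The sign of this median turned with total counts (0.44), TPM (0.35), members at 20 CPM or more (0.70) and overlapping genes left out (1.58).

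Most genes of central metabolism did not meet the limits. The same holds for all genes at 1 CPM or more, of which 6.88% were higher and 6.64% lower. Of glycolysis genes, 2 of 18 (11.1%) were higher and 1 (5.56%) lower (median log2 ratio -0.26), the median being 0.32 with total counts. The glucose transporter SLC2A3 was at 30.4 CPM in fibroblasts and 1087 CPM in iNSLCs, 35.8-fold (95% interval 34 to 37.8) higher, and at 1132 and 1608 CPM in the iPSC clones. PFKP, a phosphofructokinase, was at 85.5 CPM in fibroblasts and 7.99 CPM in iNSLCs, 10.7-fold lower, and HK2 (76.3 to 80 CPM), GPI (302 to 286 CPM) and PGK1 (527 to 414 CPM) lay within 2-fold. Of cholesterol synthesis genes, 0 of 21 were higher and 1 lower (median log2 ratio -0.81), the lower one being INSIG1, which retains the sterol sensor (240.4 to 45.8 CPM). No mitochondrially encoded gene was called, and their median log2 ratio was -0.03 (0.55 with total counts). COX1 was at 24144 CPM in fibroblasts and 11348 CPM in iNSLCs, and COX2 at 2549 CPM in fibroblasts and 3788 CPM in iNSLCs.

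**Figure D5:**
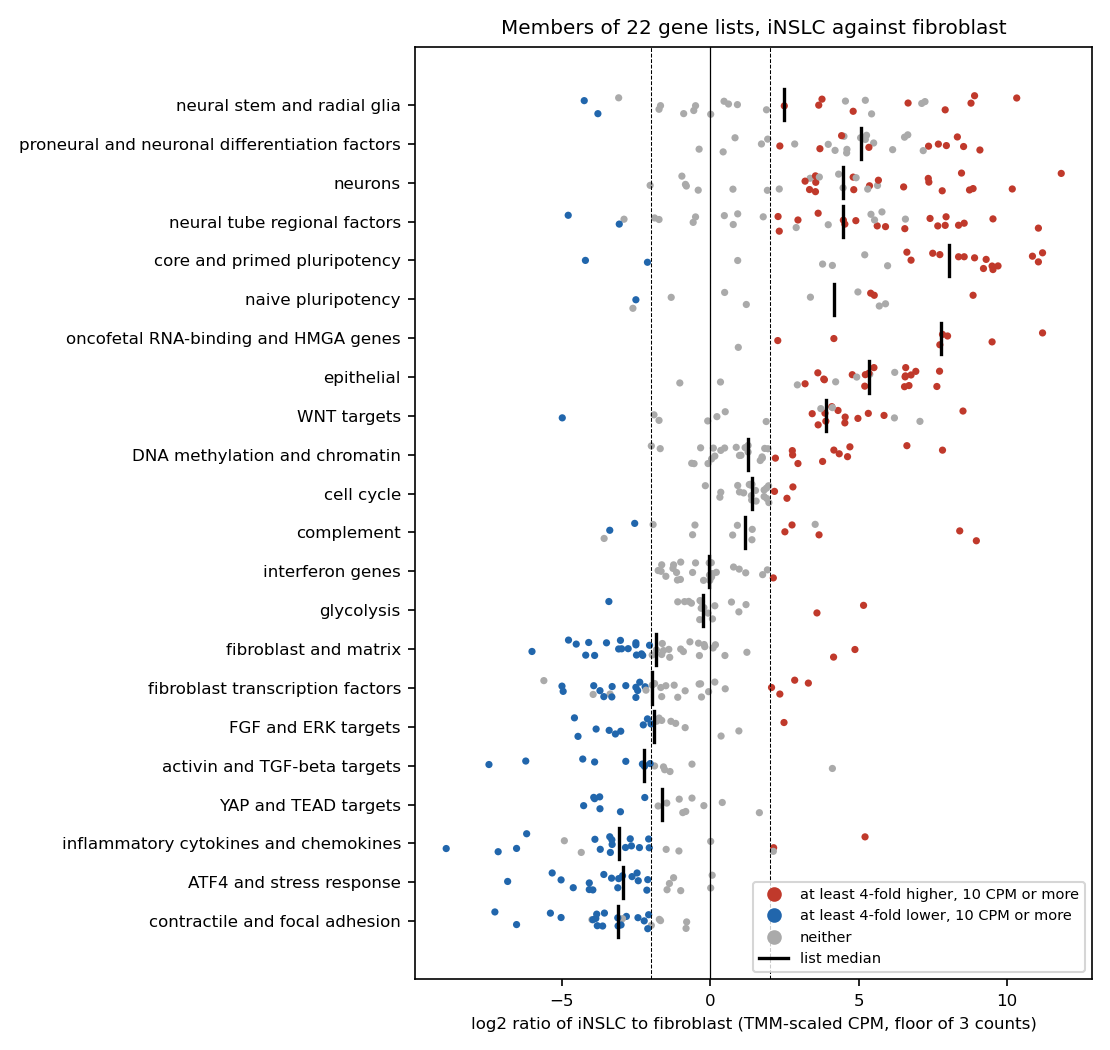
Log2 ratios of iNSLC to fibroblast (TMM-scaled CPM, with counts under 3 raised to 3) for the members of 22 lists at 1 CPM or more in either library; each point is a gene, red or blue where it lay at least 4-fold higher or lower with 10 CPM or more, and black bars are list medians, beside a median of -0.04 over all 13473 genes. Neural, pluripotency, epithelial and WNT lists lie to the right, with medians of 2.49 to 8.04, and contractile, stress response, cytokine, TGF-beta and fibroblast lists to the left, with medians of -3.11 to -1.82.

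Markers of other cell types that the colonies could hold were counted over the members of each list at 1 CPM or more in either library. Members under 1 CPM in both libraries were left out, among them 11 muscle, 8 blood and immune and 6 germ cell genes. Of keratinocyte genes, 4 of 11 were higher and 0 lower (median log2 ratio 3.13), with a summed level of 69.3 CPM in fibroblasts and 327 CPM in iNSLCs. KRT1, a keratin of upper epidermis, was at 0.0432 CPM in fibroblasts and 41 CPM in iNSLCs and at 0 counts in both clones, and KRT15 of basal cells was at 0.194 CPM in fibroblasts and 9.21 CPM in iNSLCs. Of neural crest and Schwann cell genes, 4 of 20 were higher and 3 lower (median log2 ratio 2.70), with TFAP2A (11.2 to 93 CPM) and ERBB3 (2.72 to 93.1 CPM) higher and the crest marker SOX10 at 0.194 CPM in fibroblasts and 3.73 CPM in iNSLCs. Of melanocyte genes, 2 of 8 were higher and 1 lower (median log2 ratio 2.16), with DCT (0.0432 to 15.2 CPM) and KIT (27 to 128 CPM) higher and MITF (21.1 to 3.91 CPM) lower. Of endothelial genes, 2 of 9 were higher and 2 lower (median log2 ratio 1.54), with KDR at 0 CPM in fibroblasts and 21.6 CPM in iNSLCs and the defining marker CDH5 at 0.0432 CPM in fibroblasts and 1.05 CPM in iNSLCs. Of blood and immune genes, 0 of 8 were higher and 1 lower (median log2 ratio -0.92), with PTPRC at 0.756 CPM in fibroblasts and 2.86 CPM in iNSLCs. Of muscle genes, 1 of 6 were higher and 0 lower (median log2 ratio 4.18), and of chondrocyte genes, 4 of 11 were higher and 0 lower (median log2 ratio 1.86), with ACTC1 (0.777 to 11.9 CPM) and COL2A1 leading and ACAN at 1.68 CPM in fibroblasts and 6.11 CPM in iNSLCs. Of mesendoderm genes, 2 of 14 were higher and 1 lower (median log2 ratio 4.04), with TBXT at 0 CPM in fibroblasts and 1.12 CPM in iNSLCs. Of trophoblast genes, 3 of 12 were higher, CDX2, TFAP2A and TFAP2C, and 0 lower (median log2 ratio 3.09). Of germ cell genes, 3 of 5 were higher, KIT and TFAP2C among them, and 0 lower (median log2 ratio 4.14). These named genes are counted on other lists as well. The part of any of these cell types in the ratios above was not tested, and in RNA of a whole culture fewer cells of a type and less RNA per cell cannot be told apart.

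The annotated spans, introns included, of ACAN, ALDH1A2, ANKRD1, BGN, CDH1, CDH13, CDH6, CEBPD, CHAC1, CNN1, COL12A1, COL14A1, COL1A1, COL3A1, COL4A6, COL5A2, CRIM1, CXCL10, CXCL2, DDIT3, DNMT3B, DPT, DPYSL5, DSG2, DUSP6, ELAVL2, ELAVL3, ELAVL4, ERBB3, FABP7, FGF2, FLNA, FOSL1, FOXC1, GBP1, GBP2, GDF15, GPI, GPM6A, GRHL2, HMGA2, HOXA11, HSPA5, IGF2, IGF2BP3, KARS1, LTBP2, MEST, MMP9, MSI1, MTHFD2, MYCN, NR2F1, PCDH17, PDGFRA, PFKP, PHLDA2, SALL4, SLC1A3, SLC2A3, SLC6A9, SLC7A8, SOX10, SPRY4, TRIB3, WIF1, WNT1 and ZBED2 overlap that of another gene. Whether exons overlap was not checked, and no source used here gives the strand setting of the counting. Reads of a shared stretch, where there is one, may have been counted at either gene or at neither.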

How the data were processed

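Read counts per gene were used as the authors deposited them, whole numbers for 25880 Ensembl genes in 4 libraries. The submitters' processing notes name Trim Galore 0.4.0 for trimming, STAR 2.5.3a for alignment to Sscrofa11.1 and featureCounts 1.5.2 for counting. The annotation release and the strand setting were not given in the sources used here. The per-sample files and the series table held the same counts. The fibroblast total was 62421521 and the iNSLC total 25784594, which leaves weak genes less precise in iNSLCs.

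Symbols came from the Ensembl identifier (14857 genes) or, for 1638 genes, from the 1 protein-coding RefSeq gene of the same assembly that covered at least 80% of the shorter span. Where both routes gave a symbol, 94.7% of 12849 agreed in symbol. 9385 genes had none. POU5F1 and SOX2 were named by position. KDM4D, not found by name, is not analysed here.

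TMM factors were computed over all 4 libraries after filterByExpr, which kept 15739 genes (edgeR 4.0.16, R 4.3.3). The factors were 0.742 (fibroblast) and 1.11 (iNSLC). Counts under 3 were raised to 3 for log2 ratios. With 1 to 3 counts in the lower library the fold is of the unraised counts. Intervals were exact conditional binomial (SciPy 1.17.1, 95%). The step was also run on simulated counts with counting noise only and few changed genes. That run could not test the scaling or the intervals on libraries as unlike as these. With 1 library per state no test was run, although a count model was available. No source used here states the study's own model for them.

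The 49 lists came from the study's text and textbook knowledge, and 9 were added after the values were seen. Members and lists were chosen with earlier results of these data known, so none of them is independent support. Genes were named from the 15 highest and 15 lowest ratios, all measured members of the study's lists, up to 4 members per list and direction by size, members close to 0, the 5 most abundant genes and the neighbouring runs, and further ones after their values were seen. Not all genes that this selects are named, and some are not reported here. Alternatives were RLE, total-count, 2-library and TPM scaling, other level and fold limits, another floor, a thinned fibroblast library, either iPSC clone left out of the scaling, and overlapping genes left out.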

Additional observations from a re-analysis of the deposited data

How the results depend on the processing

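Total counts gave 508 lower genes and TPM 567 instead of 895. Without a level limit 2873 genes were higher instead of 927, and with 1 CPM 2078. A 2-fold limit gave 1702 higher and 2295 lower genes, and an 8-fold limit 645 and 371. Neighbouring runs, 16 higher and 11 lower, became 49 and 5 with total counts, 70 and 115 at 2-fold, and 7 and 3 at 8-fold. Without iPSC replicate 1 or iPSC replicate 2 in the scaling, 911 and 913 genes were higher and 889 and 882 lower. RLE scaling, TMM from the 2 libraries alone, a floor of 1 count and thinning the fibroblast library kept both counts within 1.5 times. So did leaving mitochondrial and collagen genes out of the scaling, which was chosen after seeing the data. Without overlapping genes 805 genes were higher and 690 lower. CPM were then taken over smaller totals, 35716955 in fibroblasts and 13891734 in iNSLCs, which made 10 CPM a looser limit. These counts can therefore not show whether overlap matters. Leaving out mitochondrial and collagen genes also made the totals smaller, though by less. The share of higher genes among those called was 50.9% with TMM, 72.3% with total counts, 69.9% with TPM, 70.2% without a level limit, 64.5% with 1 CPM and 63.5% at 8-fold, but 44.5% with 20 CPM and 42.6% at 2-fold. Of 370 listed genes past the limits, 315 kept their call with total counts, 308 with TPM and 364 or more with each of the other scalings. None changed direction, but none could have done so through scaling. A scaling shifts all log2 ratios alike, and each shift here was smaller than the 4-fold limit. With members at 20 CPM or more only, the medians of neural crest (-0.94), melanocyte (-0.94), endothelial (-1.74) and muscle (-0.65) markers turned negative, as did that of antigen presentation genes (-0.33). The chondrocyte median was -0.73 without a level limit and -1.09 without its collagens. In these cases the lists held other members. No paired analysis was possible because each state had 1 library. Depth limits genes near 0.105 CPM in iNSLCs.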

Other observations

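Imprinted genes were chosen as a list for their expression from 1 parental copy. On it, 7 of 17 were higher and 1 lower (median log2 ratio 0.81). DLK1 and MEST (1.96 to 73.4 CPM), which are active in embryonic tissue, led the higher ones, followed by PEG3 (6 to 58.6 CPM), MAGEL2 (7.64 to 45.1 CPM) and DIRAS3 (0.928 to 11.1 CPM). PHLDA2 (14.3 to 0.977 CPM) was the lower one, PEG10, abundant in both, was at 3953 CPM in fibroblasts and 1968 CPM in iNSLCs, and IGF2 was at 98.9 CPM in fibroblasts and 38.8 CPM in iNSLCs. Of the IGF and growth factor axis, 2 of 20 were higher and 3 lower (median log2 ratio -0.29), the median being 0.29 with total counts. IGF1, a hormone-like factor of mesenchyme, was at 61.5 CPM in fibroblasts and 8.31 CPM in iNSLCs, 7.4-fold lower, FGF2 at 84.4 CPM in fibroblasts and 10.3 CPM in iNSLCs, and IGFBP2 at 301 CPM in fibroblasts and 446 CPM in iNSLCs. Of the matrix proteases and inhibitors, 2 of 21 were higher and 6 lower (median log2 ratio -1.75), with ADAMTS12 (1.99 to 26.8 CPM) higher and PLAU (429 to 30.8 CPM) lower.

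Families added after their values were seen included annexins and S100 proteins, both of them calcium-binding. Of the annexins, 0 of 9 were higher and 5 lower (median log2 ratio -2.21), and of the S100 proteins, 0 of 11 were higher and 3 lower (median log2 ratio -0.98). ANXA8 was at 198 CPM in fibroblasts and 8.45 CPM in iNSLCs, ANXA1, which damps inflammation, at 1619 CPM in fibroblasts and 238 CPM in iNSLCs, and S100A6 at 528 CPM in fibroblasts and 30.7 CPM in iNSLCs. Of 7 listed guanylate-binding protein genes, which are interferon-induced in many cells, only 2 were found by name. These, GBP1 (10.8 to 142 CPM) and GBP2 (5.64 to 25 CPM), were both higher (median log2 ratio 2.94), while most interferon genes were not.

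Genes that lay next to each other among those at 10 CPM or more, with at least 3 in a row called in the same direction, formed 16 runs of 50 genes higher in iNSLCs and 11 runs of 37 genes lower. How many such runs unrelated neighbours give was not tested. The longest run held 6 lower genes on chromosome 8, from 69932644 to 70429494, with the chemokines CXCL8, AMCF-II and CXCL2 and the growth factors EREG (91.6 to 3.49 CPM) and AREG (29.5 to 2.09 CPM), and its median log2 ratio was -6.05. On chromosome 4, S100A2, S100A4 and S100A6 formed a run with a median of -6.01. On chromosome 5, KRT1, KRT8 and KRT18 formed a higher run, and on chromosome 6 CDH2, DSC2 (35.5 to 405 CPM), DSG2 (0.885 to 216 CPM) and B4GALT6 (2.44 to 17.4 CPM) formed another of 4 genes that joins N-cadherin with desmosomal cadherins. NEFM and NEFL, with ADAMDEC1 (4.53 to 28.6 CPM), formed a run on chromosome 14. NCAM1 (15.8 to 185 CPM) lay in a run with PLET1 (0.0432 to 10.8 CPM) and DRD2 (0 to 29.6 CPM) on chromosome 9.

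The X chromosome had a larger share of higher genes than the autosomes. Of its 361 genes at 10 CPM or more in either library, 55 (15.2%) were higher and 22 (6.09%) lower, beside 9.20% and 8.88% over all such genes. Its median log2 ratio over genes at 10 CPM or more in both libraries was 0.13 above that of the autosomes, of which the single chromosomes lay between -0.10 and 0.08. With limits of 1 or 20 CPM the difference was 0.15 and 0.05. Runs on the X held DCX with PAK3 (10.2 to 74.6 CPM) and CAPN6 (1.08 to 107 CPM), and COL4A6 and COL4A5 with IRS4 (0 to 13.6 CPM). Each value compares 1 library with 1 library and has no replicate check.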
